A study of Mus musculus with 9 samples.

Results

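Complement is a cascade of proteases and cofactors, and 8 mouse genes of it were followed here in B16F10 cells, a pigmented mouse melanoma line: the protease genes C1s1, C1s2 and C1ra, the substrate genes C3 and C4b, and the regulator genes Serping1, Cd55 and Cd59a. They are 8 of the 51717 genes to which the transcripts of the 9 libraries were summed. The list was drawn up because C1s1 had been seen to be far higher in the knockdown line, so the values of the knockdown line against the control are given as a description and without a test. The study compared 3 lines by mRNA sequencing, to see which transcripts differ in these tumour cells when Sirpa is lowered or raised. The Sirpa product is a receptor that restrains phagocytosis when it meets CD47, and it is studied mostly in macrophages. The first line carried the genotype Non-target control, the second SIRPA knockdown and the third SIRPA overexpression, each with 3 libraries described as biological repeats. All cells grew in the same serum-supplemented medium with no further treatment named. Each condition is 1 line, so a difference between lines cannot be told apart from a difference between lines made separately, and the p-values reflect only how the repeats of a line vary. How the lines were made, and whether the control carries the same vector as both others, is not given in the sources used here.

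The classical pathway of complement starts with the C1 complex, in which C1q binds its target, the protease C1r cuts and activates the protease C1s, and C1s then cuts C4 and C2 to form the enzyme that splits C3. C1 inhibitor, the product of Serping1, blocks C1r and C1s, CD55 speeds the decay of the enzyme that splits C3, and CD59 stops the membrane attack complex on the cell surface. Liver supplies most of the circulating proteins, while many other cells, tumour cells among them, make part of the set. The mouse carries second copies of several of these genes, alike to different degrees: C1s1 and C1s2, C1ra and C1rb, C4b and C4a, Cd55 and Cd55b, and Cd59a and Cd59b.

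Because reads of near-identical copies can be assigned to either gene, the shared sequence was measured before any level was read. Over all annotated transcripts, 33.5% of the 31-base words of C1s1 also occurred in C1s2, and 47.6% occurred in any other gene. Gm16567 held 15.5% of the C1s1 words, part of them also in C1s2. It is an antisense gene that held 0 counts in all 9 libraries. The coding sequences of C1s1 and C1s2 were identical at 1992 of 2082 aligned bases (95.7%), with a longest identical run of 229 bases. For C1s2 this was the annotated transcript with the longest coding part. The authors' quantification did not list that transcript and used a different one for C1s2, of 2662 bases. The word shares include both. The differences were unevenly spread, and the 120 coding bases that hold the most of them, positions 1463 to 1582 with 24 differences, are shown. Fragments from this stretch can tell these coding sequences apart. Whether the quantified C1s2 transcript holds the stretch was not checked. The parts of the transcripts outside the coding sequence were not aligned. Capitals mark the differing bases, the strand is the coding one, and the sequences were read from the GENCODE M21 transcripts of GRCm38.
C1s1 coding: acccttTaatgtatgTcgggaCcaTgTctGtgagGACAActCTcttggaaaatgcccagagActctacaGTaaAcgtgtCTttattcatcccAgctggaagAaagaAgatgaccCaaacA
C1s2 coding: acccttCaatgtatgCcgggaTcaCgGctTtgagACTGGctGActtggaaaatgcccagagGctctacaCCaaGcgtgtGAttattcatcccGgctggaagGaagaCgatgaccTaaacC
C1ra and C1rb were closer to each other than C1s1 and C1s2, and both regulator pairs less close. C1ra and C1rb were identical at 2076 of 2118 coding bases (98.0%) with a run of 757 bases, Cd55 and Cd55b at 92.6% and Cd59a and Cd59b at 85.0%. C4b shared 48.3% of its words with C4a, Cd59a 8.2% with Cd59b, and C3 and Serping1 shared 0%.

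Sirpa itself followed the labels. Its levels in counts per 1000000 (CPM, scaled by the TMM method) were 292, 289 and 303 in the control libraries, 118, 112 and 115 in the knockdown libraries and 895, 898 and 914 in the overexpression libraries. The log2 fold change against control was −1.36 ± 0.04 (SE) with knockdown, adjusted p = 4.57e-13, and 1.61 ± 0.04 with overexpression, adjusted p = 4.7e-14 (quasi-likelihood test of edgeR, Benjamini-Hochberg adjustment). A gene is called below at an adjusted p under 0.05 in that test over all 13064 genes that passed a filter on low counts. The libraries held between 16.4 and 22.38 estimated counts in units of 1000000. Melanocyte markers were all present, 8 of 8 at 1 CPM or more, with a summed level of 14800 to 16500 transcripts per 1000000 (TPM) over the 9 libraries.

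C1s1, the gene of the C1s protease, was low in the control line and higher in both others. The control libraries held 37, 41 and 40 counts of C1s1, the knockdown libraries 361, 282 and 281 and the overexpression libraries 100, 158 and 77. In CPM this was 2.27, 2.49 and 1.97 in the control, 16.3, 16.8 and 17.1 in the knockdown and 4.72, 9.30 and 4.41 in the overexpression libraries. No library of one line overlapped with those of another, and the order of the lines was knockdown, overexpression, control. The mean level was 2.24 ± 0.258 CPM (SD, n = 3) in the control, 16.7 ± 0.406 in the knockdown and 6.14 ± 2.74 in the overexpression line. Within the overexpression line replicate 2 was the highest, and the other 2 libraries lay close together. Knockdown against control gave a log2 fold change of 2.90 ± 0.25, 7.46-fold higher, and is a description.

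Overexpression against control, which the choice of genes did not use but which shares the control libraries, gave 1.45 ± 0.26, a 2.73-fold rise of C1s1 with adjusted p = 0.000612 (quasi-likelihood test of edgeR, Benjamini-Hochberg adjustment). The low control values that helped to choose C1s1 enter this comparison too and favour a rise. The p-value is therefore not independent of the choice. Across 20 other ways of processing, the value ran from 1.03, without overexpression replicate 2, to 2.09, with the average transcript length as an offset, and the adjusted p from 2.11e-09 to 0.013. C1s1 was 2.73-fold lower in the overexpression than in the knockdown line, a log2 fold change of −1.45 ± 0.23, again without a test because the knockdown libraries chose the gene. Adding the counts of C1s2 to C1s1 gave 2.86 with knockdown and 1.42 with overexpression.

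C1ra, the gene of the C1r protease that activates C1s, was also lowest in the control. Its counts were 122, 123 and 120 in the control, 445, 369 and 269 in the knockdown and 268, 265 and 284 in the overexpression libraries. The levels were 7.48, 7.46 and 5.91 CPM in the control, 20.1, 22.0 and 16.4 CPM in the knockdown and 12.6, 15.6 and 16.3 CPM in the overexpression libraries. Here too the libraries of the 3 lines did not overlap, though the highest overexpression library (16.3 CPM) almost reached the lowest knockdown library (16.4 CPM). Knockdown against control gave 1.49 ± 0.15, 2.81-fold higher, as a description. Overexpression against control was a rise of 1.10 ± 0.15 on the log2 scale, 2.14-fold, adjusted p = 7.27e-05 (quasi-likelihood test of edgeR, Benjamini-Hochberg adjustment), and 0.98 to 1.20 over the 20 alternatives with adjusted p from 1.69e-10 to 0.00567. C1rb, the near-identical copy, was listed at 0 in all 9 libraries, so the counts that the authors' quantification could have placed in either gene stand in C1ra.

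**Figure D1:**
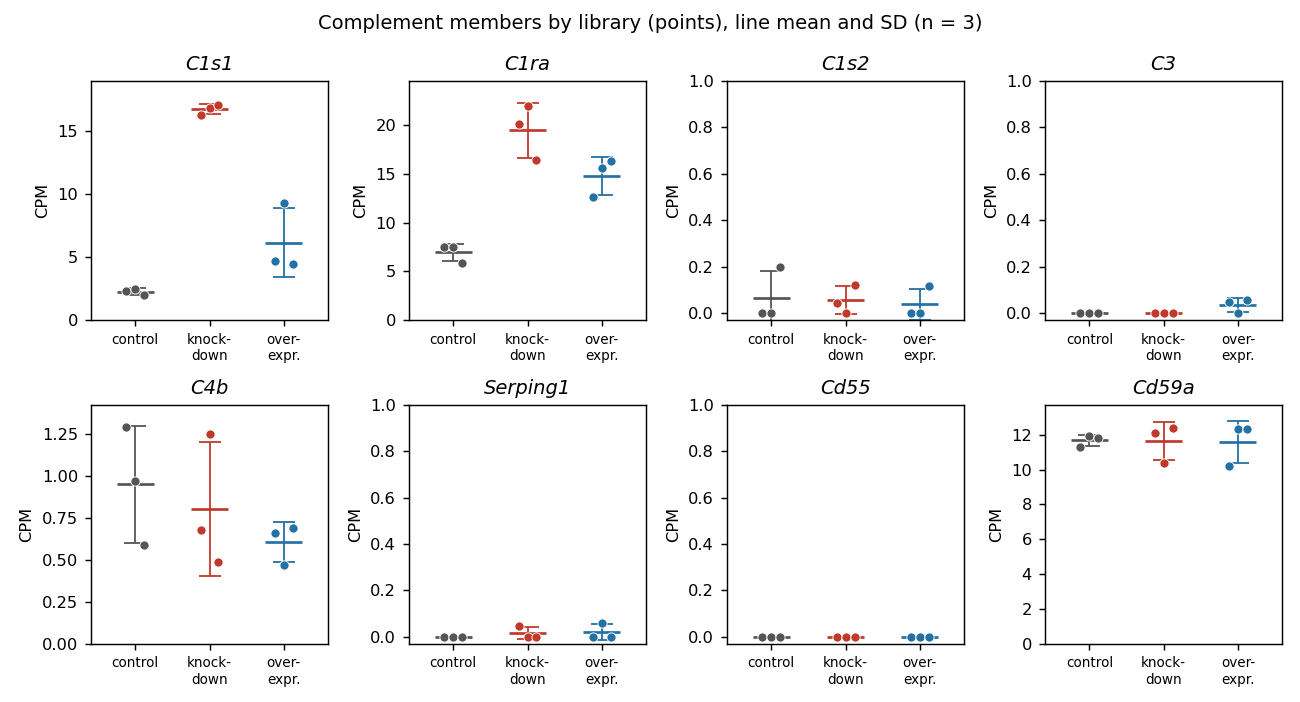
Levels of the 8 complement genes in counts per 1000000 (CPM, vertical axes) in each of the 9 libraries (points), with the mean and SD of the 3 libraries of a line. C1s1 and C1ra were higher in every knockdown and overexpression library than in any control library, Cd59a lay between 10.2 and 12.4 CPM, and C1s2, C3, Serping1 and Cd55 were at or near 0.

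C1s2, the copy of C1s1, was at the edge of detection. It held 0, 0 and 4 counts in the control, 1, 0 and 2 in the knockdown and 0, 0 and 2 in the overexpression libraries. A count of 3, the limit that a library with 0 counts allows, corresponded to 0.135 to 0.184 CPM depending on the library. C1s2 did not pass the filter and no fold is given. Set beside the 281 to 361 counts of C1s1 in the knockdown libraries, almost all fragments of the pair were assigned to C1s1.

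Protease levels can be compared with one another only per length, in TPM. C1s1 stood at 1.34 ± 0.194, 13.5 ± 3.45 and 5.93 ± 3.07 TPM (SD, n = 3) in the control, knockdown and overexpression lines, and C1ra at 3.49 ± 0.451, 10.3 ± 1.41 and 7.68 ± 1.13 TPM. The mean level of C1s1 thus passed that of C1ra only in the knockdown line, where the difference of the means was within the SD of C1s1. Within libraries, C1s1 was above C1ra in each knockdown library (11.8, 17.5 and 11.3 against 10.4, 11.7 and 8.84 TPM). The same held in overexpression replicate 2 (9.18 against 8.05 TPM). Part of the C1s1 level rests on short annotated transcripts, in which few counts make many TPM. With the 2 C1s1 transcripts of 2906 and 2946 bases alone, a setting added after the values were seen, C1s1 stood at 1.13 ± 0.179, 8.83 ± 0.455 and 3.14 ± 1.42 TPM. The ratio of this level to that of C1ra was 0.312, 0.344 and 0.314 in the control, 0.806, 0.757 and 1.05 in the knockdown and 0.374, 0.594 and 0.260 in the overexpression libraries. By this ratio every knockdown library was above every other library, and the overexpression libraries lay on both sides of the control libraries. With all C1s1 transcripts the ratio was 0.312, 0.344 and 0.522 in the control, 1.13, 1.5 and 1.28 in the knockdown and 0.480, 1.14 and 0.643 in the overexpression libraries. By that ratio overexpression replicate 2 lay above knockdown replicate 1, so the separation of the knockdown from the overexpression libraries depends on which transcripts are counted.

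The transcripts that carried the C1s1 counts differed between libraries. The transcript of 2906 bases (ENSMUST00000162443) held 37.0, 41.1 and 36.7 estimated counts in the control, 309.6, 155.9 and 269.0 in the knockdown and 93.0, 83.2 and 0 in the overexpression libraries. The transcript of 2946 bases (ENSMUST00000160505) held 0, 0 and 0 in the control, 39.5, 117.7 and 5.8 in the knockdown and 4.6, 70.8 and 72.9 in the overexpression libraries. The balance between these 2 transcripts therefore varied among libraries of 1 line. They are hard to tell apart: 106 of the 2916 words of the longer and 66 of the 2876 words of the shorter one were absent from the other. In overexpression replicate 3 nearly the whole signal was assigned to the longer transcript and in replicate 1 to the shorter, and the gene total is the firmer value. C1ra counts all stood in 1 transcript of 2981 bases.

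**Figure D2:**
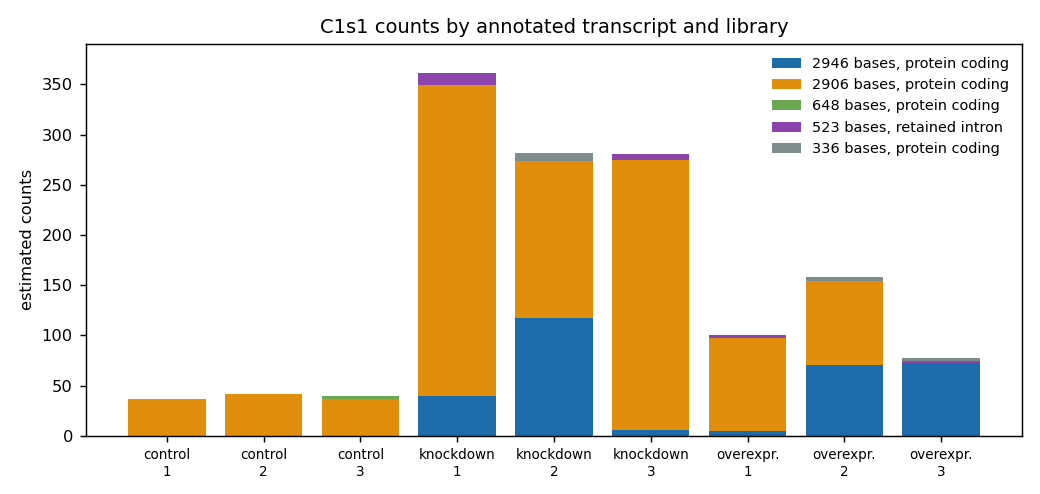
Estimated counts of C1s1 in each library, stacked by annotated transcript (colours give length in bases and annotated type). The total is 37 to 41 in the control, 281 to 361 in the knockdown and 77 to 158 in the overexpression libraries, and the division between the 2906-base and the 2946-base transcript differs between libraries of the same line.

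C3, which encodes the central protein that the cascade splits, was not detected in 7 of 9 libraries. Counts were 0 in all control and knockdown libraries, and 1, 0 and 1 in the overexpression libraries, below the limit of 3 counts. C4b, one of the C4 genes that C1s acts on through their product, held 21, 16 and 12 counts in the control, 15, 21 and 8 in the knockdown and 14, 8 and 12 in the overexpression libraries. The lines overlapped, at 0.949 ± 0.348, 0.804 ± 0.397 and 0.606 ± 0.118 CPM. Overexpression against control gave a log2 fold change of −0.63 ± 0.59 for C4b with adjusted p = 0.494 in the edgeR test with Benjamini-Hochberg adjustment, so a difference was not detectable at this depth. Knockdown against control gave −0.23 ± 0.58 for C4b. C4a, its copy, had 19, 6 and 13 counts in the control, 20, 12 and 4 in the knockdown and 18, 7 and 3 in the overexpression libraries, and was not called either (adjusted p = 0.637 with overexpression and 0.863 with knockdown, the same test).

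The regulators in the list comprise 1 gene found at about 12 CPM in every line and 2 genes at or near 0. Cd59a, which encodes the glycolipid-anchored inhibitor of the membrane attack complex, held 185, 196 and 239 counts in the control, 269, 175 and 204 in the knockdown and 217, 209 and 215 in the overexpression libraries. Its levels were 11.3, 11.9 and 11.8 CPM in the control, 12.1, 10.4 and 12.4 CPM in the knockdown and 10.2, 12.3 and 12.3 CPM in the overexpression libraries, and the 3 lines overlapped. Overexpression against control gave −0.01 ± 0.13 on the log2 scale, adjusted p = 0.976 (quasi-likelihood test of edgeR, Benjamini-Hochberg adjustment), with −0.06 to 0.19 over the alternatives, and Cd59a was not called under any of them. Per length it was the most abundant of the 8 genes in the control line at 11.2 ± 0.306 TPM, above 39.4% of the 13064 genes. In the knockdown line Cd59a at 12.7 ± 2.01 TPM and C1s1 at 13.5 ± 3.45 TPM did not differ beyond their spread.

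Cd55, the decay-accelerating factor gene, and its copy Cd55b were listed at 0 in all 9 libraries. Serping1, the C1 inhibitor gene, held 1 count in knockdown replicate 1 and 1 count in overexpression replicate 2, and 0 in the other 7 libraries. Both genes were thus below 3 counts everywhere, in the same libraries in which C1s1 and C1ra, whose products C1 inhibitor blocks, reached 77 to 445 counts in the knockdown and overexpression lines. Cd59b, the copy of Cd59a, held 0, 5 and 2 counts in the control and 0 or 1 count in each other library.

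Of the 8 genes, 4 passed the filter on low counts (C1s1, C1ra, C4b and Cd59a), and these counts are over those 4 and not over the whole list. With overexpression 2 of the 4 were called, both higher, where 24.3% of the 13064 genes were called and 13.1% were called higher. That count reuses the control libraries on which C1s1 was chosen, so it is not independent of the choice. With knockdown 35.4% of all genes were called, and no count of the 4 genes is given because the list was chosen on that comparison. The median log2 fold change of the 4 genes was 0.54 with overexpression, beside −0.00 over all genes tested. With knockdown the median of the 4 was 0.74, beside −0.01, which is a description because the list was chosen on that comparison.

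**Figure D3:**
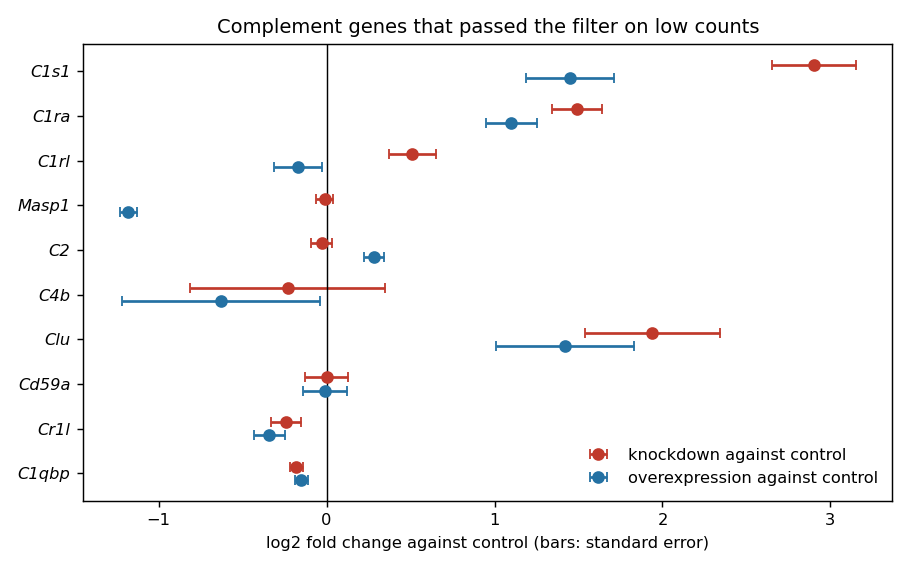
Log2 fold change against control (horizontal axis, bars are standard errors) for 10 complement genes in the knockdown and overexpression lines. C1s1, C1ra and Clu lie to the right of 0 in both lines, Masp1 lies at −1.18 with overexpression only, and Cd59a lies at 0.

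The upstream sequences of the protease pairs are shown because C1s1 and C1ra held nearly all counts of their pairs, and C1s2 and C1rb were at or near 0. They are the 250 bases before the most upstream annotated start of each gene, read 5′ to 3′ on the gene's strand, from RefSeq with build GRCm38.p6. C1s1 lies at chr6:124542360-124542609 on the minus strand, C1s2 at chr6:124636086-124636335 on the minus strand, C1ra at chr6:124512371-124512620 on the plus strand and C1rb at chr6:124570180-124570429 on the plus strand. Capitals mark matches to any of 5 motifs searched on both strands.
C1s1 upstream: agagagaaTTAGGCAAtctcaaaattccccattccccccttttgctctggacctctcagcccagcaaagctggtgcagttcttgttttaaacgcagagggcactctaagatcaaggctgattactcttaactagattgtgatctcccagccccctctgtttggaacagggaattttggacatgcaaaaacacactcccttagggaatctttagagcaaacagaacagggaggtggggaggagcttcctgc
C1s2 upstream: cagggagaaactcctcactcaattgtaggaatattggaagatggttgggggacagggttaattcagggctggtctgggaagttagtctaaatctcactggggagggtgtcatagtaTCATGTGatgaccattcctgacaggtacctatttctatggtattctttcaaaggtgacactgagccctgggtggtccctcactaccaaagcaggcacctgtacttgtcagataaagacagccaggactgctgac
C1ra upstream: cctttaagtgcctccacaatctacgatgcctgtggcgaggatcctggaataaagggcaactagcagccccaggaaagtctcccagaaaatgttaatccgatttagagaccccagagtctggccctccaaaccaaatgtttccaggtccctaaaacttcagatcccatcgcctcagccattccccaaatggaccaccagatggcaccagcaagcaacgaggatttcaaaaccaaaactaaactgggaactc
C1rb upstream: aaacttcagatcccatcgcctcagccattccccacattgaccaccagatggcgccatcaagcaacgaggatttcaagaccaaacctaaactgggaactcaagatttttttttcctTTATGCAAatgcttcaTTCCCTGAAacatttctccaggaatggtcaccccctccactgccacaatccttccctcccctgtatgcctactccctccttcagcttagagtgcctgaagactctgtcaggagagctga
The motifs, picked after the levels were known, were the interferon-gamma activated site TTCNNNGAA, the interferon-stimulated response element written as GAAA, any 2 bases and GAAA again, the C/EBP motif TTGCNNAA, the AP-1 motif TGANTCA and the melanocyte M-box TCATGTG. They occurred in 7.02%, 2.98%, 9.56%, 6.75% and 3.25% of the 32851 upstream windows of the same length. The C1s1 window held 1 C/EBP match, starting at position −242 from the gene start, and the C1ra window held no match to any of the 5. The C1rb window held 1 C/EBP and 1 interferon-gamma activated site match, and the C1s2 window 1 M-box match. The last 99 bases of the C1ra window matched C1rb at 93 bases (93.9%), displaced so that they lie at positions −250 to −152 from the annotated C1rb start. For C1s1 and C1s2, near-identical in their coding parts, the best-scoring local alignment of the 2 windows spanned 11 bases, 10 of them identical. Alignments that score lower, and sequence outside these windows, were not examined. Matching sequence displaced from the annotated start, as at C1rb, could therefore have been missed. A match in these letters is a description and not a site in use.

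On the chromosome C1ra and C1s1 lie side by side, with C1rl on one side and C1rb and C1s2 on the other, and the neighbours that passed the filter were compared in the same fit. C1rl, a serine protease gene related to C1r, was at 9.93, 9.88 and 9.41 CPM in the control, 14.6, 13.4 and 13.5 CPM in the knockdown and 9.20, 7.36 and 9.40 CPM in the overexpression libraries. C1rl rose by 0.51 ± 0.14 on the log2 scale with knockdown (adjusted p = 0.00854, quasi-likelihood test of edgeR, Benjamini-Hochberg adjustment) and was not called with overexpression (−0.17 ± 0.14, adjusted p = 0.435). The 2 perturbed lines differed in C1rl by −0.68 ± 0.14 (overexpression against knockdown, adjusted p = 0.0021 in the same test). C1rl shares 1.3% of its words with other genes, so these values do not rest on how reads of a copy were divided.

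Among the nearest tested genes on either side of the cluster, taken without a limit on distance, called differences went in both directions. Lpcat3, a phospholipid acyltransferase gene and the nearest tested gene beyond the copies, rose with both knockdown (0.67 ± 0.06, adjusted p = 5.6e-07) and overexpression (0.39 ± 0.06, adjusted p = 0.000272; quasi-likelihood test of edgeR, Benjamini-Hochberg adjustment). Ptpn6, which encodes the phosphatase SHP-1 that acts downstream of inhibitory receptors including SIRPA, rose by 0.62 ± 0.12 with knockdown and by 0.60 ± 0.12 with overexpression (adjusted p = 0.000825 and 0.00178, the same test). Foxj2, a transcription factor gene, fell with knockdown (−0.68 ± 0.09, adjusted p = 3.48e-05, the same test) and was not called with overexpression (adjusted p = 0.0824). Necap1, a clathrin adaptor gene, rose with knockdown (0.68 ± 0.08, adjusted p = 7.93e-06, the same test). Its smaller difference with overexpression (0.29 ± 0.08, adjusted p = 0.0155) lost the call under 6 of 20 alternatives: without control replicate 3 (adjusted p = 0.0944), without overexpression replicate 2 (0.0823) or 3 (0.0623), with the length offset (0.0714) and on the TPM scales (0.0578 and 0.058). Grcc10 fell by 0.24 on the log2 scale with knockdown (adjusted p = 0.0191, the same test), a call also lost under 6 of 20: without control replicate 2 (0.0891) or 3 (0.0765), without knockdown replicate 1 (0.102), with the length offset (0.0666) and on the TPM scales (0.136 and 0.135). Pex5, Clstn3, Emg1 and Phb2 were not called against control in either line.

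**Figure D4:**
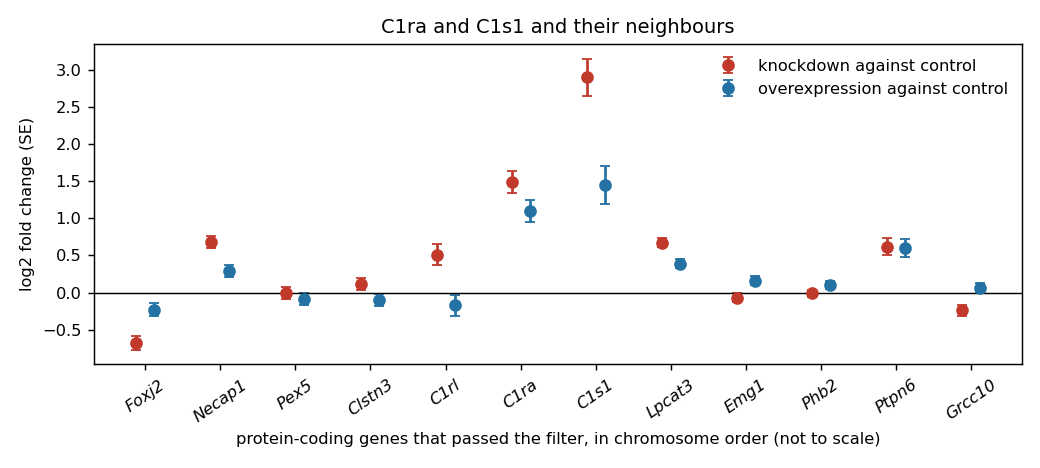
Log2 fold change against control (vertical axis, bars are standard errors) of C1ra, C1s1 and the 10 nearest tested protein-coding genes in chromosome order, not to scale. C1ra and C1s1 have the largest values of the 12 in both lines, with 2.90 and 1.45 for C1s1.

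Other complement genes were taken from lists of the pathway, 56 genes with the 8 included. Of the 56, 27 were listed at 0 in all libraries, among them all 3 C1q chain genes, Masp2, Cfd, Hc (the C5 gene) and 5 of the 10 receptor genes. Of the 48 further genes 12 passed the filter. With knockdown 2 of the 12 rose and 2 fell, with overexpression 2 rose and 3 fell, and between the perturbed lines 1 was higher and 2 were lower with overexpression. Over all 13064 genes 18.0% were called higher and 17.4% lower with knockdown, 13.1% and 11.1% with overexpression, and 11.0% and 11.1% in overexpression against knockdown (22.1% in all). The median log2 fold change of the 12 was −0.02 with knockdown and −0.19 with overexpression.

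Masp1, a protease gene of the lectin pathway, was lower with overexpression. It stood at 115, 115 and 117 CPM in the control, 116, 114 and 114 CPM in the knockdown and 53.0, 50.7 and 49.6 CPM in the overexpression libraries. The overexpression libraries lay far below the others, a fall of 2.26-fold against control (log2 fold change −1.18 ± 0.05, adjusted p = 2.15e-10) and of 2.24-fold against the knockdown line (−1.16 ± 0.05, adjusted p = 2.52e-10, quasi-likelihood test of edgeR, Benjamini-Hochberg adjustment). With knockdown the value was −0.01 ± 0.05 (adjusted p = 0.875, the same test). Per length Masp1 was at 45.5 ± 0.208, 47.7 ± 0.271 and 20.5 ± 0.496 TPM in the control, knockdown and overexpression lines, more than C1s1 or C1ra in each of them. Masp1 shares 0.2% of its words with other genes.

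C2, the gene of the protease that forms the C3-splitting enzyme with C4, stood at 71.3, 68.9 and 77.7 CPM in the control, 71.6, 70.2 and 72.0 CPM in the knockdown and 86.0, 89.9 and 88.6 CPM in the overexpression libraries. It rose by 0.28 ± 0.06 on the log2 scale with overexpression (1.21-fold, adjusted p = 0.00309, quasi-likelihood test of edgeR, Benjamini-Hochberg adjustment) and was not called with knockdown (−0.03 ± 0.06, adjusted p = 0.763). The overexpression libraries were all above the others. C2 shares 40.2% of its words with the overlapping gene model Gm20547, so its level is less certain than that of Masp1. Clu, the gene of clusterin, an inhibitor of the membrane attack complex, was low in all lines and lowest in the control, at 0.613, 0.849 and 0.690 CPM. It stood at 3.11, 2.62 and 2.55 CPM in the knockdown and 2.31, 1.65 and 1.83 CPM in the overexpression libraries. Clu rose with knockdown (1.94 ± 0.40, adjusted p = 0.00133) and with overexpression (1.42 ± 0.41, adjusted p = 0.0169; quasi-likelihood test of edgeR, Benjamini-Hochberg adjustment). The call with overexpression was lost without control replicate 1 (adjusted p = 0.0622), control replicate 3 (0.0533) or overexpression replicate 1 (0.0804).

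Cr1l, the gene of Crry, a membrane regulator of C3 and C4 splitting in rodents, lay above 77.3% of the tested genes per length in the control line. Its levels were 45.3, 49.0 and 45.0 CPM in the control, 39.1, 34.6 and 44.4 CPM in the knockdown and 34.9, 36.5 and 38.7 CPM in the overexpression libraries. It fell with overexpression (−0.34 ± 0.09, adjusted p = 0.00922, quasi-likelihood test of edgeR, Benjamini-Hochberg adjustment), a call lost under 4 of 20 alternatives: without control replicate 2 (adjusted p = 0.0505), with the length offset (0.0706) and in limma on either TPM scale (0.0988 and 0.0995). The knockdown value was −0.24 ± 0.09 with adjusted p = 0.0431 in that test, and 13 of 20 alternatives took it past the threshold. Leaving out any one library except knockdown replicate 3 did so, with adjusted p from 0.0532 (without overexpression replicate 3) to 0.195 (without knockdown replicate 2), and DESeq2 gave 0.0684. C1qbp, whose product binds C1q and lies mostly in mitochondria, fell with knockdown from 173 to 153 CPM (−0.18 ± 0.04, adjusted p = 0.00292, quasi-likelihood test of edgeR, Benjamini-Hochberg adjustment), a call lost in limma on log2(TPM + 0.1) (adjusted p = 0.0505). With overexpression it was at 156 CPM (−0.15 ± 0.04, adjusted p = 0.0152), a call lost under 7 of 20 alternatives: without control replicate 1 (adjusted p = 0.0615) or 2 (0.0501), without overexpression replicate 1 (0.0517) or 2 (0.0548), with the length offset (0.0621) and on the TPM scales (0.0917 and 0.0946). Cfb and Cfp of the alternative pathway, C8g of the membrane attack complex, Cd46, a membrane cofactor gene, Itgb2, an integrin chain of complement receptors, and C4a were at mean levels of 0.271 to 1.82 CPM and were not called in any comparison. Cfb shares 75.5% of its words with the gene model Gm20547, so its level is uncertain. Its counts were 32, 27 and 0 in the control, 12, 22 and 25 in the knockdown and 14, 41 and 0 in the overexpression libraries.

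**Figure D5:**
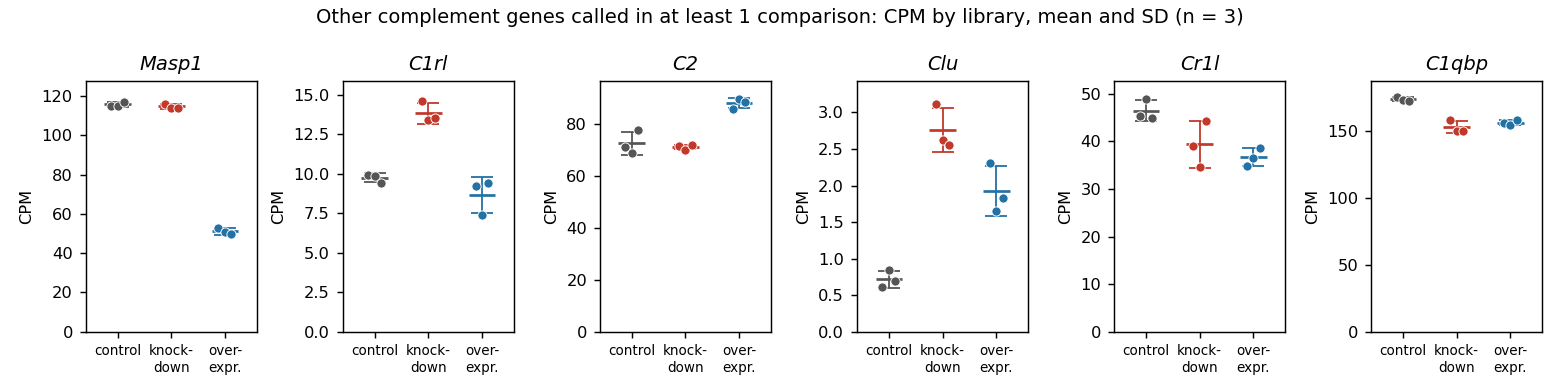
Levels of the 6 other complement genes called in at least 1 comparison, in CPM (vertical axes) by library (points) with the mean and SD of the 3 libraries of a line. Masp1 was near 115 CPM in the control and knockdown libraries and near 51 CPM with overexpression, and the other genes differed less or at lower levels.

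Genes whose level followed that of C1s1 most closely were looked up over the 9 libraries among 957 protein-coding genes whose line means spanned at least 1 on the log2 scale. The nearest by Pearson's r of log2 CPM were Tbl1xr1 (0.985), Plekhh2 (0.982), Des (0.980), Rab27b (0.978) and Sec16b (0.969). Their mean levels in the control, knockdown and overexpression lines were 29.4, 71.8 and 44.9 CPM for Tbl1xr1, a subunit of a nuclear co-repressor complex, and 1.81, 18.4 and 5.42 CPM for Sec16b, a factor of endoplasmic reticulum exit sites. Des, the gene of the muscle intermediate filament desmin, stood at 5.42, 17.0 and 10.0 CPM. The r of Rab27b rests on few counts: 3, 3 and 3 in the control, 27, 23 and 20 in the knockdown and 7, 11 and 10 in the overexpression libraries. The 9 libraries fall into 3 lines and share them across all genes, so these values describe the order of the lines and carry no test.

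Cells other than melanoma cells could also hold complement transcripts, and their markers were measured beside C1s1 and C1ra. Of 12 macrophage and myeloid markers 6 were at 0 in all libraries (Ptprc, Adgre1, C1qa, C1qb, C1qc and Tyrobp), and the list summed to 4.47 to 6.60 TPM in the control, 6.89 to 8.84 in the knockdown and 4.84 to 7.11 in the overexpression libraries. Cd68 and Lyz2 of that list reached a mean of 1 CPM in at least 1 line. Cd68 was at 1.88, 2.78 and 1.05 CPM in the control, knockdown and overexpression lines, and Lyz2 at 0.467, 1.39 and 1.79 CPM. All 6 T and NK cell markers were at 0, and Alb, Serpina1a and Fgb of 6 hepatocyte markers were at 0. Of 10 fibroblast markers only Thy1 was at 0, and the list summed to 19.2 to 22.0 TPM in the control, 11.0 to 12.7 in the knockdown and 22.0 to 26.5 in the overexpression libraries, with Col1a1 at 55.6, 4.95 and 66.5 CPM. The low sum in the knockdown line was that of Col1a1, since Col1a2 was at 5.27, 8.62 and 8.39 CPM, Pdgfrb at 11.6, 14.7 and 16.6 CPM and Pdgfra at 4.08, 3.94 and 3.04 CPM. Of the 4 fibroblast markers tested 1 was called higher and 1 lower with knockdown, where 18.0% and 17.4% of all tested genes were. With overexpression 3 of the 4 were called higher, where 13.1% of all tested genes were. Endothelial markers, with Cdh5 and Kdr of 7 at 0, summed to 117 to 128 TPM in the control, 162 to 190 in the knockdown and 138 to 147 in the overexpression libraries. The sum had the order of C1s1 through Eng (271, 361 and 299 CPM), whereas Vwf was at 4.01, 2.53 and 2.51 CPM. The part of these marker lists in the C1s1 and C1ra values was not tested. Of 6 epithelial markers 5 were at 0, and Cdh1 was at 1.41, 0.590 and 0.863 CPM. In bulk RNA a change in the number of expressing cells and a change in the RNA per cell cannot be told apart.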

How the data were processed

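RNA of 3 B16F10 lines, 3 libraries each, was sequenced as non-directional paired-end libraries of 150 bases, per the labels' protocols. The authors' deposited tables give, per the file headers, the length and effective length in bases, the TPM and the estimated count of each transcript. Salmon 1.4.0, DESeq2 1.34.0, MultiQC 1.11 and the build mm39 are named, per the submitters' processing notes, while the annotation release and any trimming are not stated there. Without strand marking, reads of a gene and of its antisense partner are not separable.

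Transcripts were matched to genes with GENCODE M21 of GRCm38 (137161 of 140789, 97.42%; the rest held 0.554% to 0.654% of counts and were left out). For each gene the deposited estimated counts were added up and rounded, and TPM was summed per gene. edgeR 4.0.16 (R 4.3.3) with filterByExpr, TMM scaling and a quasi-likelihood fit of line to all 9 libraries gave the tests. Standard errors come from the fold change and its F statistic. Errors of levels are SDs of 3 libraries, and limits for 0 counts cover counting error only. DESeq2 1.42.0, limma 3.58.1 on log2(TPM + 0.5) or log2(TPM + 0.1), limma-voom, other scalings and filters, a length offset and leaving out each library were alternatives. The steps were tested on simulated data. Libraries of a line differed by more than sampling noise (chi-square per degree of freedom 4.79 to 10.64).

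The members and lists were chosen with earlier results of these data known. Genes named are the 8 members, their copies and C1rl, the other complement genes passing the filter, Sirpa, the 5 nearest tested protein-coding genes on either side of C1ra and C1s1, and the 5 genes most like C1s1. Further listed genes are named only where they were at 0 or among the markers. RefSeq upstream entries matched 6 of the 8 members. Word sharing used all annotated transcripts.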

Additional observations from a re-analysis of the deposited data

How the results depend on the processing

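Of the 13064 genes, 4619 were called with knockdown, 3172 with overexpression and 2887 between the perturbed lines. The length offset gave 2794, 1575 and 1423 calls, limma on log2(TPM + 0.5) 2731, 1464 and 1166, and limma on log2(TPM + 0.1) 2733, 1436 and 1155; the cause was not tested. The TPM scale also moved the balance of higher to lower calls, from 2345 and 2274 to 1750 and 981 with knockdown, and from 1716 and 1456 to 1025 and 439 with overexpression. Leaving out 1 library at a time gave 3885 to 4555, 2440 to 3297 and 2241 to 2867 calls. C1s1 and C1ra were called higher with overexpression, and C4b and Cd59a were not called, under each alternative that gave a value (19 for C4b and 20 for the others). Values close to 0 changed sign. Cd59a with overexpression was 0.15 with the length offset, 0.18 and 0.19 on the TPM scales, and −0.06 to 0.07 when 1 library was left out (0.01 without control replicate 2, 0.07 without overexpression replicate 1). Masp1 with knockdown was 0.00 with the offset and 0.07 and 0.07 on the TPM scales, and C2 with knockdown ran from −0.06 to 0.03 when 1 library was left out, the latter without control replicate 3. Deviations from the line mean correlated at −0.093 to 0.127 between libraries of the same number and at −0.131 to 0.093 between libraries of different numbers. The main fit therefore did not pair libraries by number, although such correlations cannot show that same-numbered libraries were handled apart. With the replicate number as a block 4423, 2957 and 2712 genes were called, and C1s1 and C1ra rose by 1.41 and 1.10 with overexpression. Depth limits C1s2, C3, C4b, Serping1 and Cd55, which held at most 21 counts in a library.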
